A study of Mus musculus with 8 samples.

Results

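Notch signalling was followed through 10 genes in cardiac fibroblasts that were being driven towards cardiomyocytes, either in a dish or inside an infarcted heart. The genes were the receptors Notch1, Notch2 and Notch3, the ligands Jag1 and Dll4, the target genes Hes1, Hey1, Hey2 and Heyl, and the feedback gene Nrarp. They were chosen by name as core parts of the pathway and make up 10 of the 54532 genes in the deposited expression table. The cells were MICFs, cardiac fibroblasts taken from the infarcted hearts of 8-week-old male C57BL/6 mice. All groups carried lentiviruses with tetracycline-inducible MGT (Mef2c, Gata4 and Tbx5 on a single construct), Myocd, Sall4 and eGFP, together called MGTMyoS, and all received doxycycline to switch the genes on. The in vivo cells were injected into the left ventricle of C57BL/6 mice directly after ligation of the left anterior descending artery, and those mice also received a daily immunosuppressant mixture (tacrolimus, mycophenolate mofetil and methylprednisolone). The in vitro cells stayed in the induction medium, which the study's methods list with SB431542, an inhibitor of TGF-β receptors, and baricitinib, an inhibitor of JAK kinases. The host heart, the immunosuppressants and the medium therefore all differ between the in vivo and in vitro groups and cannot be told apart. At 1 week (Day 7) and 2 weeks (Day 14) the eGFP+ cells were sorted, and each of the 4 groups (In vitro 1w, In vitro 2w, In vivo 1w, In vivo 2w) holds 2 RNA-seq libraries. Which animals, wells or pools a library came from is not given in the sources used here, so p-values measure only the spread between these libraries, which may be technical.

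Notch receptors sit on the surface of a cell and bind ligands of the Jagged and Delta-like families on a neighbouring cell. Binding leads to cleavage of the receptor, by ADAM proteases and then by γ-secretase, and the freed intracellular part enters the nucleus and joins the DNA-binding protein RBPJ to switch on genes of the Hes and Hey families, which encode transcriptional repressors. In the heart and its vessels the pathway is known for its roles in endothelial cells, in the mural cells that wrap vessels and in fibroblasts, and it is known to hold back the conversion of fibroblasts to cardiomyocyte-like cells.

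The 8 libraries held 12304242 to 14546904 fragments on genes. Values are FPKM, fragments scaled to gene length and library size, so levels can be set side by side between genes. The fibroblast label was checked against 11 fibroblast markers, whose summed FPKM was 3499 to 3664 in In vitro 1w, 2437 to 2438 in In vitro 2w, 1.317e+04 to 1.403e+04 in In vivo 1w and 1.103e+04 to 1.242e+04 in In vivo 2w. The 10 macrophage markers, led by Lyz2, summed to 5200 to 5930, 4847 to 5944, 2665 to 3062 and 1935 to 2324 FPKM in the same order, above the fibroblast sum in each cultured library. Col1a1, Col3a1, Col1a2 and Postn led the fibroblast sum in vivo, with means of 4420, 3265, 1951 and 1941 FPKM in In vivo 1w. Of the 11 fibroblast markers, 9 were higher in vivo at each week. At 1 week Thy1 and Ddr2 were lower in vivo, at 23.4 and 22.3 FPKM against 39.4 and 34.2 in vitro. Pdgfra was at 20.85 against 19.99, so the higher sum was not shared by every marker. The 10 cardiomyocyte markers summed to 166 to 188 FPKM at 1 week and 1032 to 1224 FPKM at 2 weeks in vitro, against 16.4 to 19.6 and 27.5 to 48.8 FPKM in vivo. Myl7 and Actc1 led the sum, with means of 535 and 306 FPKM in In vitro 2w. Myl2 and Pln were higher in vivo, at 0.713 and 2.93 FPKM in In vivo 2w against 0.0559 and 0.0924 in In vitro 2w. The other markers of this list were lower in vivo at both weeks. No marker of the lists was at 0 in all libraries. In sorted but mixed material of this kind, fewer cells of a type and less RNA per cell cannot be told apart, and the part of these shifts in any result below was not tested.

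The DNA just before the start of a gene can hold sites for RBPJ and for the Hes and Hey proteins, so the upstream windows of the genes were read. RefSeq (GRCm38.p6) gave a window for 7 of the 10 genes. Hes1, Hey1 and Heyl had none. Each window ran from 250 bases before to 50 bases after the annotated start. Letters known from RBPJ sites (TGGGAA, and the longer GTGGGAA that contains it) and the E-box letters CACGTG, which proteins of the basic helix-loop-helix class such as Hes and Hey can bind, were searched on both strands. Hey2 was the only 1 of the 7 with TGGGAA, which 25.6% of all 32851 windows held, and both of its matches extended to GTGGGAA, held by 6.38% of windows. Nrarp was the only 1 with CACGTG, held by 7.15% of windows. The 250 bases before the start of Hey2 and Nrarp are shown because they hold these matches, in capitals (TTCCCAC is GTGGGAA read on the other strand), and those of Notch3 and Dll4, which hold none, because among the 10 genes these are the receptor and the ligand with the largest differences at 1 week.
Hey2, chr10:30842784-30843033, minus strand: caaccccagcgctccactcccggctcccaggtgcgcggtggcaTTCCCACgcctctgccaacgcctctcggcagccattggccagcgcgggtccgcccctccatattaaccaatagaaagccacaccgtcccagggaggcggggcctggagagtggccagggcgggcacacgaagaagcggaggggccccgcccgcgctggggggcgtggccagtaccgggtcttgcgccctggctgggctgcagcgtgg
Nrarp, chr2:25180508-25180757, plus strand: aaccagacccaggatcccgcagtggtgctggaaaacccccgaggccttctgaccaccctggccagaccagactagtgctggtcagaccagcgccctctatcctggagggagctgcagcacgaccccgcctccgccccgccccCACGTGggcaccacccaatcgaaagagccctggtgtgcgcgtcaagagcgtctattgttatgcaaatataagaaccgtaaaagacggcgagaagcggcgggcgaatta
Notch3, chr17:32166891-32167140, minus strand: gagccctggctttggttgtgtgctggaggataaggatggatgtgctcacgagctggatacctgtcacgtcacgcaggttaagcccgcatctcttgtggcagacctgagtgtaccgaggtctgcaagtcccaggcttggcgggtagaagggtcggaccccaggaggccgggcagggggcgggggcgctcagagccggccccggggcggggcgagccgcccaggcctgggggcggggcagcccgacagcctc
Dll4, chr2:119325534-119325783, plus strand: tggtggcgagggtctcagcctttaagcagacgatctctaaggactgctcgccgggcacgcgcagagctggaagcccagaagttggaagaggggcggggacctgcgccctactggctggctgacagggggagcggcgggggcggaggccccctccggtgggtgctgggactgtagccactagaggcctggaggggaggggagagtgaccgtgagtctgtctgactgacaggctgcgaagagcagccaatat
The other match of Hey2 lies across the annotated start, and is shown with the bases around it.
Hey2 start, chr10:30842769-30842798, minus strand: tgggctgcagcGTGGGAAagaacctccagg
A match describes letters and not a bound site, and no binding was measured in these libraries.

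The order of the 10 genes by level was led by Notch3 in In vitro 1w and by Hes1 in the other 3 groups. In In vitro 1w the mean FPKM ran from Notch3 (59.6) through Hes1 (45.1), Jag1 (41.9), Heyl (23.6), Notch2 (12.7), Hey1 (7.33), Notch1 (2.88), Hey2 (2.56) and Nrarp (0.972) to Dll4 (0.514). Only Notch1 and Hey2 were neighbours with overlapping libraries in that order. In In vivo 2w the order was Hes1 (97.8), Heyl (30.9), Jag1 (17.4), Notch2 (17.1), Notch3 (15.5), Hey1 (5.02), Notch1 (4.93), Dll4 (3.65), Nrarp (1.64) and Hey2 (1.61). There the libraries of Jag1, Notch2 and Notch3 ran into each other, as did those of Hey1 and Notch1 and those of Nrarp and Hey2. Notch3 thus went from the first to the fifth place between these groups and Dll4 from the tenth to the eighth.

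**Figure D1:**
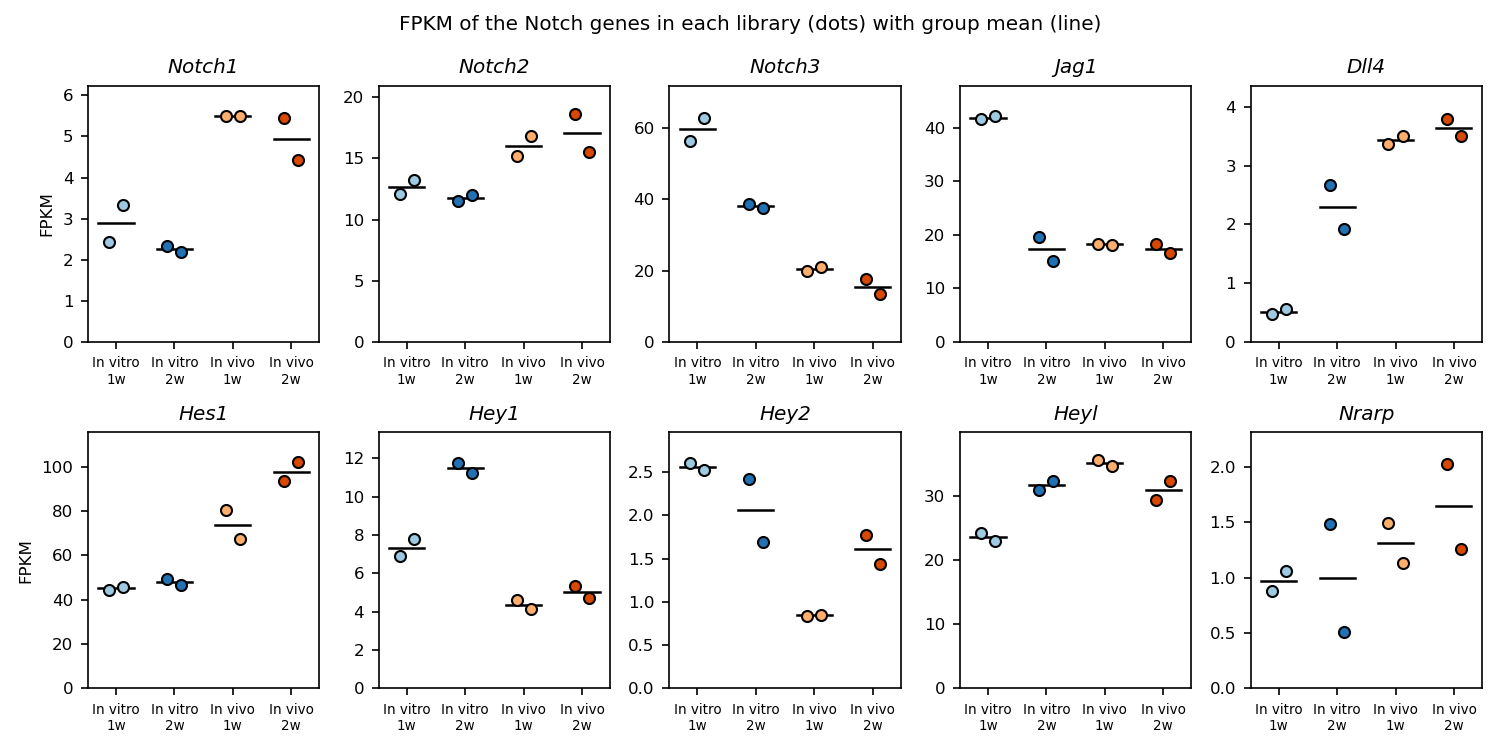
FPKM of each of the 10 Notch genes in the 8 libraries, with dots for single libraries and a line for the mean of the 2 libraries of a group; each panel has its own FPKM axis from 0. Notch3 and Jag1 stand highest in In vitro 1w, Dll4 lowest there, and Hes1 highest in In vivo 2w.

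How the pathway differed between cells in the heart and cells in the dish was asked at each time. Differences were tested with limma on log2(FPKM + 0.1) across the 15708 genes that reached 0.5 FPKM in at least 2 libraries, with Benjamini-Hochberg adjustment, and a gene is said to be called, or to rise or fall, at an adjusted p under 0.01 and a change over 2-fold. The study's methods give the same numbers but do not say that the p was adjusted. All 10 genes passed the filter. At 1 week, Dll4 was called higher in vivo and Notch3, Jag1 and Hey2 were called lower, while 7.79% of all tested genes were called higher and 5.07% lower. At 2 weeks, Notch1 and Hes1 were called higher and Notch3 and Hey1 lower, beside 9.02% and 8.05% of all tested genes. The libraries of the compared groups did not overlap for 10 of the 10 genes at 1 week and for 6 at 2 weeks, beside 72.9% and 74.1% of all tested genes. The median log2 difference of the 10 was 0.36 at 1 week and 0.27 at 2 weeks, against -0.0058 and -0.0034 over all tested genes.

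Notch3, a receptor known from the smooth muscle and pericytes of vessel walls, was the member with the highest level in vitro at 1 week and was lower in vivo at both times. In mm10 it spans chr17:32120820-32166880 on the minus strand. It was at 56.5 and 62.8 FPKM in In vitro 1w, 38.7 and 37.6 in In vitro 2w, 19.8 and 21.1 in In vivo 1w, and 17.6 and 13.4 in In vivo 2w. Every in vivo library lay below every in vitro library. At 1 week the in vivo mean was 2.92-fold lower (log2 difference -1.54, SE 0.13, limma adjusted p 0.00012) and at 2 weeks 2.47-fold lower (log2 difference -1.31, SE 0.13, limma adjusted p 0.0002). These calls held in each of 20 other ways of processing the data, though a looser threshold among them could not end a call. The summed FPKM of the 12 mural markers, genes of the vessel-wall cells in which Notch3 is known, was higher in vivo at 1 week. It was 213 to 217 in In vitro 1w and 308 to 312 in In vivo 1w. Of the 12, 7 were called higher and 1 lower, beside 7.79% and 5.07% of all tested genes. Rgs5 alone had means of 4.94 FPKM in In vitro 1w and 72.3 in In vivo 1w. Myh11, at 30.2 and 12.9 in the same order, Cox4i2, at 9.40 and 5.78, and Pdgfrb, at 85.05 and 79.2, were lower in vivo, as Notch3 was. Pdgfrb was the largest term of the sum in both of these groups. At 2 weeks the mural sums overlapped, at 297 to 318 in vitro and 303 to 319 in vivo. Then 2 of the 12 mural markers were called higher and 3 lower, beside 9.02% and 8.05% of all tested genes. Myh11 was then at 66.6 FPKM in vitro and 34.3 in vivo. Whether mural cells account for any part of the Notch3 difference was not tested.

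Notch1, the broadly used receptor best known from endothelial cells and lymphocytes, was higher in vivo. It spans chr2:26457903-26516663 on the minus strand. It read 2.43 and 3.34 FPKM in In vitro 1w, 2.34 and 2.19 in In vitro 2w, 5.49 and 5.50 in In vivo 1w, and 5.45 and 4.42 in In vivo 2w. Again no in vivo library overlapped an in vitro library. The log2 difference was 0.92 at 1 week (95% interval 0.52 to 1.32, limma adjusted p 0.0047), short of the 2-fold limit, and 1.08 at 2 weeks (SE 0.17, limma adjusted p 0.0018). The call at 2 weeks was lost without In vitro 2w replicate 1 (1.13, adjusted p 0.010), In vitro 2w replicate 2 (1.03, adjusted p 0.015) or In vivo 2w replicate 1 (0.93, adjusted p 0.011), with a pseudocount of 1 (0.86), without the scaling between libraries (0.76) and with only the 4 libraries compared (adjusted p 0.013). Without In vitro 1w replicate 2 the difference of Notch1 at 1 week was called (1.14, adjusted p 0.0042). Notch2, a receptor expressed in many tissues (chr3:98013527-98150361 on the plus strand), was at 11.5 to 13.2 FPKM in the in vitro libraries and 15.2 to 18.7 in the in vivo libraries. Its differences of 0.33 at 1 week and 0.53 at 2 weeks did not reach the 2-fold limit (limma adjusted p 0.040 and 0.0051), and that of Notch2 at 1 week was -0.0075 without the scaling between libraries.

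Because the receptors moved in different directions, the make-up of the receptor mRNA differed between the groups. Notch3 took 78.7% and 78.5% of the summed FPKM of Notch1 to Notch4 in In vitro 1w and 70.6% and 70.3% in In vitro 2w. In vivo its share was 42.2% and 41.9% at 1 week and 38.7% and 35.8% at 2 weeks. Notch2 went from 16.9% and 16.5% in In vitro 1w to 41.2% and 41.6% in In vivo 2w, so that the ratio of Notch3 to Notch2 was 4.66 and 4.74 in the first of these groups and 0.940 and 0.859 in the last. A ratio within a library does not depend on how libraries were scaled against each other. The ratios of the 4 groups did not overlap, with 3.37 and 3.13 in In vitro 2w and 1.31 and 1.25 in In vivo 1w.

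**Figure D2:**
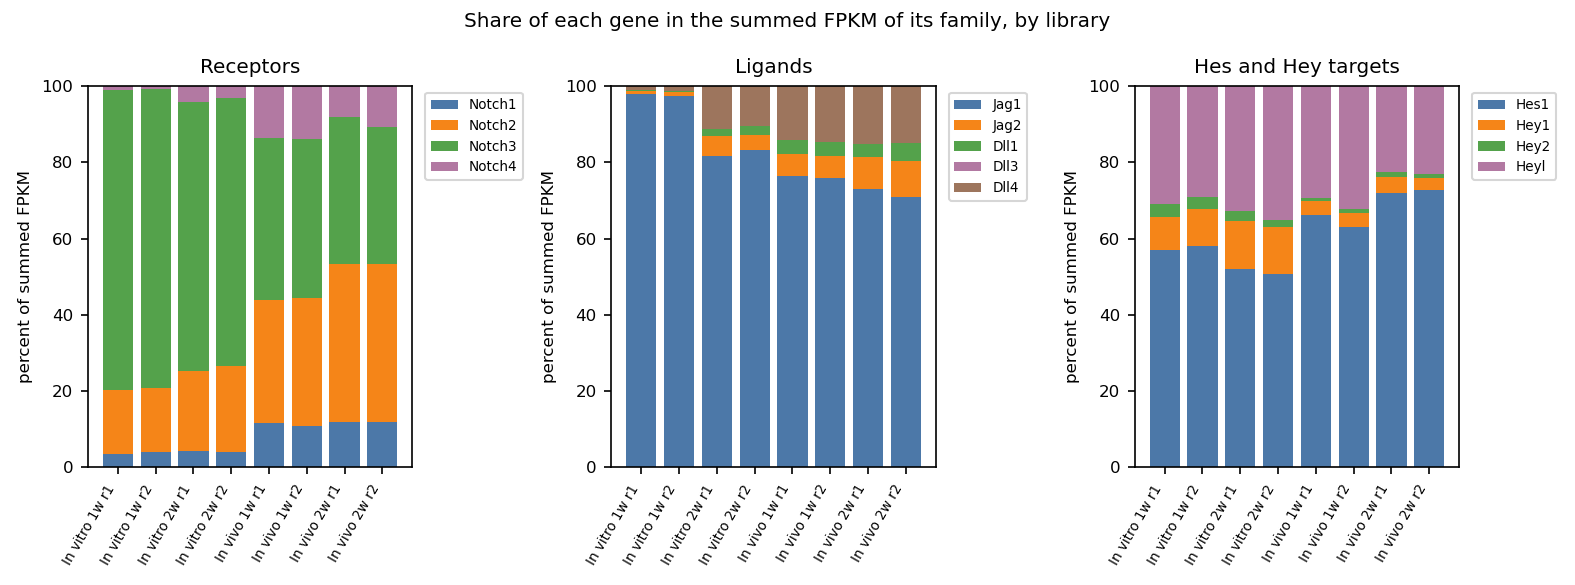
Stacked bars give the percent that each gene takes of the summed FPKM of its family in each of the 8 libraries, for the receptors, the ligands and the Hes and Hey targets. Notch3 goes from 78.7% and 78.5% of receptor FPKM in In vitro 1w to 38.7% and 35.8% in In vivo 2w, and Jag1 from 97.8% and 97.3% of ligand FPKM to 73.1% and 70.9%.

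Both ligands differed at 1 week, in opposite directions. Jag1, a Jagged ligand of mural and endothelial cells (chr2:137081456-137116644 on the minus strand), was at 41.7 and 42.1 FPKM in In vitro 1w and at 15.2 to 19.5 FPKM in all other libraries. The 2 libraries of In vitro 1w stood alone above the other 6. Jag1 was 2.30-fold lower in vivo at 1 week (log2 difference -1.20, SE 0.12, limma adjusted p 0.00026), and at 2 weeks the log2 difference was 0.015 (95% interval -0.26 to 0.29, limma adjusted p 0.93), with overlapping libraries.

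Dll4, the Delta-like ligand known from arterial endothelium and sprouting vessel tips (chr2:119325784-119335962 on the plus strand), was at 0.472 and 0.556 FPKM in In vitro 1w, 2.67 and 1.93 in In vitro 2w, 3.37 and 3.51 in In vivo 1w, and 3.79 and 3.50 in In vivo 2w. In vitro 1w was low and the other 3 groups lay within 1.93 to 3.79 FPKM, with the in vivo libraries on top. Dll4 was 6.69-fold higher in vivo at 1 week (log2 difference 2.53, SE 0.18, limma adjusted p 6.3e-05). At 2 weeks the libraries still did not overlap, and the log2 difference of 0.66 (95% interval 0.24 to 1.08, limma adjusted p 0.019) was not called. Jag1 read 88.3 and 75.8 times the FPKM of Dll4 in In vitro 1w, and 4.73 to 7.87 times in the other 6 libraries.

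The summed level of markers of endothelial cells, in which Dll4 is known, moved with it, though not each single marker did. The summed FPKM of 15 endothelial markers was 30.2 to 31.6 in In vitro 1w, 69.9 to 81.0 in In vitro 2w, 140 to 148 in In vivo 1w and 139 to 146 in In vivo 2w. The sum was 4.66-fold higher in vivo at 1 week and 1.89-fold at 2 weeks, beside 6.69-fold and 1.59-fold for Dll4. Of the 15 markers, 13 were called higher in vivo at 1 week and 7 at 2 weeks, beside 7.79% and 9.02% of all tested genes. Tek, for 1, was at a mean of 11.8 FPKM in In vitro 1w and 15.3 in In vivo 1w. Pecam1, an adhesion protein of endothelial cells, was at 1.63 and 2.13 FPKM in In vitro 1w, 6.41 and 5.31 in In vitro 2w, 16.0 and 14.3 in In vivo 1w, and 13.0 and 14.9 in In vivo 2w. Whether the marker shift accounts for any part of the Dll4 difference was not tested.

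**Figure D3:**
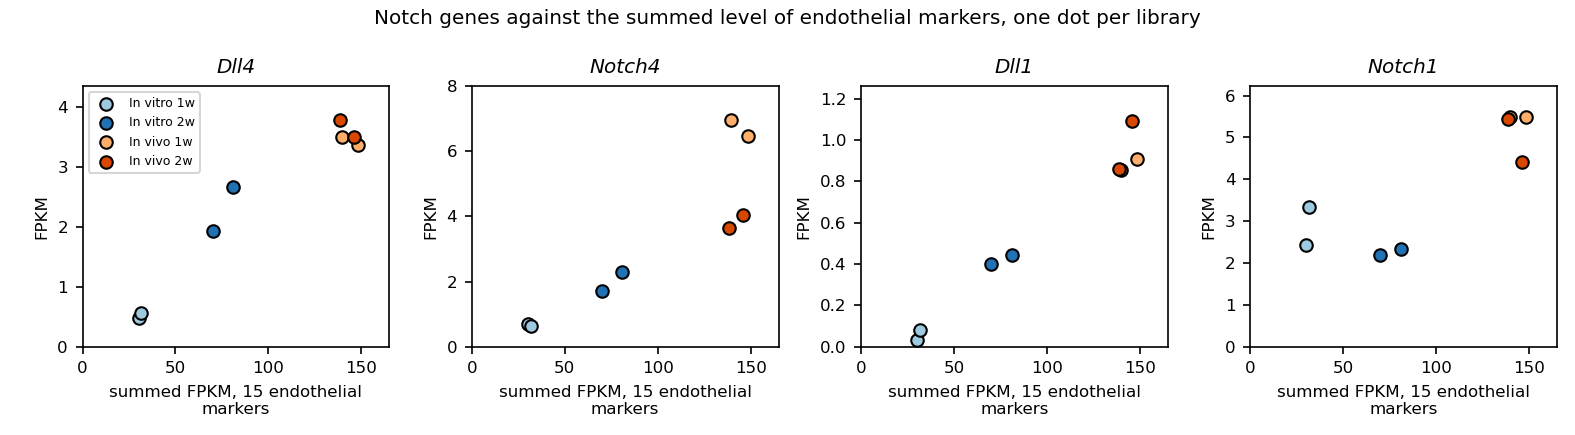
FPKM of Dll4, Notch4, Dll1 and Notch1 (vertical axes) against the summed FPKM of 15 endothelial markers (horizontal axis), with a dot for each of the 8 libraries coloured by group. Dll4, Notch4 and Dll1 are lowest in In vitro 1w, higher in In vitro 2w and highest in vivo, as the marker sum is, but Notch4 is at 6.46 and 6.96 FPKM in In vivo 1w and 3.65 and 4.03 in In vivo 2w at like sums, and Notch1 is at 2.43 and 3.34 FPKM in In vitro 1w and at 2.34 and 2.19 in In vitro 2w, where the sum is higher.

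The 4 Hes and Hey target genes did not share a direction. Hes1, a repressor that also answers to signals other than Notch (chr16:30064384-30067796 on the plus strand), was at 44.6 and 45.7 FPKM in In vitro 1w, 49.2 and 46.7 in In vitro 2w, 80.3 and 67.3 in In vivo 1w, and 93.6 and 102 in In vivo 2w. The in vivo libraries all lay above the in vitro libraries. The log2 difference was 0.70 at 1 week (95% interval 0.48 to 0.92, limma adjusted p 0.0011), below the 2-fold limit, and 1.03 at 2 weeks (SE 0.092, limma adjusted p 0.00015). That value sits at the limit, and the call was lost without In vitro 2w replicate 2 (0.99) or In vivo 2w replicate 2 (0.96), with quantile normalization (0.95) and for Hes1 without the scaling between libraries (0.69).

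Hey1, a Hey repressor of the developing heart and vessels (chr3:8663359-8667256 on the minus strand), went the other way. Its FPKM was 6.88 and 7.77 in In vitro 1w, 11.8 and 11.2 in In vitro 2w, 4.60 and 4.14 in In vivo 1w, and 5.32 and 4.71 in In vivo 2w, so every in vivo library was below every in vitro library. It was 2.29-fold lower in vivo at 2 weeks (log2 difference -1.18, SE 0.10, limma adjusted p 0.00014), a call kept in each of 20 alternatives, and the log2 difference at 1 week was -0.73 (limma adjusted p 0.0016).

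Hey2, known from ventricular muscle and arteries (chr10:30832359-30842801 on the minus strand), was at 2.60 and 2.52 FPKM in In vitro 1w and 2.42 and 1.70 in In vitro 2w, against 0.837 and 0.852 in In vivo 1w and 1.77 and 1.44 in In vivo 2w. Its in vivo libraries were separate from the cultures at 1 week and ran into them at 2 weeks. It was 3.03-fold lower in vivo at 1 week (log2 difference -1.49, SE 0.20, limma adjusted p 0.0011). Without In vitro 1w replicate 1 the adjusted p for Hey2 was 0.011 at a log2 difference of -1.47, and with a pseudocount of 1 the log2 difference was -0.95. At 2 weeks it was -0.33 (95% interval -0.80 to 0.15, limma adjusted p 0.22).

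Heyl, a Hey relative known from mural cells (chr4:123233556-123249875 on the plus strand), was at 22.9 to 24.2 FPKM in In vitro 1w and at 29.4 to 35.6 FPKM in all other libraries. In vivo it was 1.49-fold higher at 1 week (log2 difference 0.57, limma adjusted p 0.00067), under the 2-fold limit, and at 2 weeks the log2 difference was -0.037 (95% interval -0.20 to 0.12). The summed FPKM of the 12 mural markers was 1.44-fold higher in vivo at 1 week and 1.01-fold at 2 weeks, beside 1.49-fold and 0.9753-fold for Heyl, and over time in vitro it was 1.43-fold higher beside 1.34-fold for Heyl. The median log2 difference of the 12 mural markers was larger, at 1.675 at 1 week and 1.409 over time in vitro, beside 0.57 and 0.42 for Heyl. Pdgfrb and Ndufa4l2 led the sum in In vitro 1w, at means of 85.05 and 58.5 FPKM. Different genes moved the sum most. At 1 week it was Rgs5, at 4.94 FPKM in vitro and 72.3 in vivo. Over time in vitro it was Myh11, from 30.2 to 66.6 FPKM. The likeness of the ratios of the sum to those of Heyl therefore rests on few markers. The part of the mural shift in the Heyl values was not tested. Nrarp, a Notch target whose product lowers the activity of the Notch complex (chr2:25180758-25183339 on the plus strand), had the widest error of the 10 genes. Its libraries ranged from 0.513 to 2.02 FPKM, and its log2 differences of 0.39 at 1 week (95% interval -0.68 to 1.46) and 0.79 at 2 weeks (95% interval -0.28 to 1.86) were not called. Within the summed FPKM of the 4 Hes and Hey genes, Hes1 took 50.8% to 57.9% in the in vitro libraries and 63.0% to 72.6% in the in vivo libraries, and Hey1 8.80% to 12.5% and 3.36% to 4.09%.

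**Figure D4:**
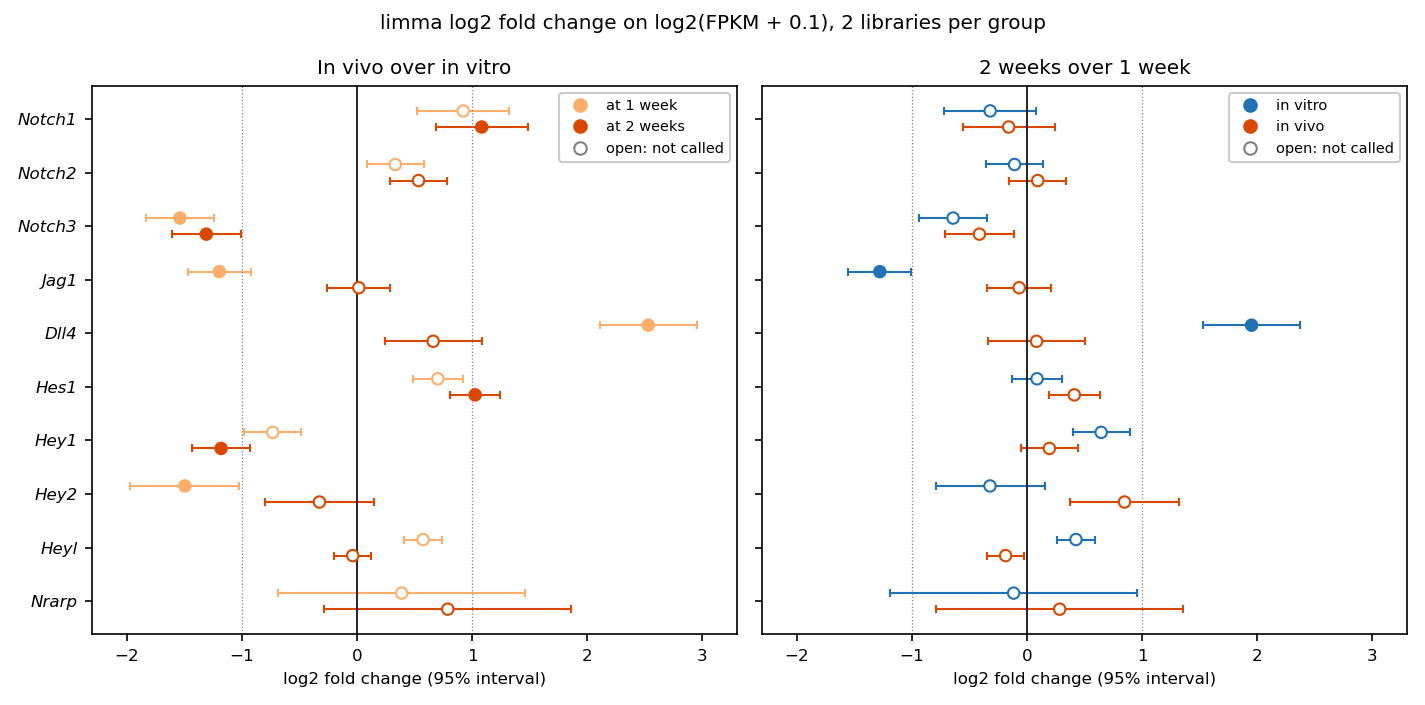
log2 fold change of the 10 Notch genes with its 95% interval from limma, in vivo over in vitro at 1 and 2 weeks (left) and 2 weeks over 1 week in vitro and in vivo (right); filled dots were called, open dots were not, and dotted lines mark a 2-fold change. Notch3 is called lower in vivo at both weeks, and Dll4 (1.95) and Jag1 (-1.28) are the only genes of the 10 called over time, both in vitro.

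Change over time was asked within each setting. In vitro, Dll4 rose and Jag1 fell from 1 to 2 weeks, where 2.76% of all tested genes were called higher and 1.05% lower. Dll4 rose 4.47-fold (log2 difference 1.95, SE 0.18, limma adjusted p 0.00086). Jag1 was 2.42-fold lower at 2 weeks (log2 difference -1.28, SE 0.12, limma adjusted p 0.00085). Both calls were lost when the spread was estimated from the 4 in vitro libraries alone (adjusted p 0.025 for Dll4 and 0.023 for Jag1). Notch3 (-0.64, limma adjusted p 0.013), Hey1 (0.64, adjusted p 0.0067) and Heyl (0.42, adjusted p 0.0064) did not reach both limits. The 1-week and 2-week libraries in vitro did not overlap for 9 of the 10 genes, Nrarp being the exception, beside 66.2% of all tested genes. The endothelial marker sum rose in the same interval, 2.44-fold, with 10 of the 15 markers called higher. Flt1 and Vwf went the other way, from means of 1.70 and 0.350 FPKM to 1.13 and 0.105, and Ptprb was at 1.46 and 1.48.

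In vivo, limma called 0 of the 10 genes between 1 and 2 weeks, beside 1.23% of all tested genes called higher and 0.949% lower. At an unadjusted p under 0.05 there were 4 (Notch3, Hes1, Hey2 and Heyl), beside 31.7% of all tested genes, and limma voom on recovered fragments also called 0. Hes1 had a log2 difference of 0.41 (95% interval 0.19 to 0.63, limma adjusted p 0.028) and Hey2 of 0.85 (95% interval 0.37 to 1.32, limma adjusted p 0.033), each with separate libraries. The groups did not overlap for 6 of the 10 genes, beside 57.6% of all tested genes. For Jag1 the 95% interval was -0.34 to 0.21 and for Dll4 -0.34 to 0.50, so a 2-fold change of either ligand in vivo lay outside the interval.

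The test of whether the in vivo difference itself changed between weeks called 2 of the 10 genes, Jag1 higher (log2 difference of differences 1.21, 95% interval 0.82 to 1.60, limma adjusted p 0.0085) and Dll4 lower (-1.87, 95% interval -2.47 to -1.27, limma adjusted p 0.0084), where 0.573% of all tested genes were called higher and 1.15% lower. For both genes the shift came with the in vitro values: Jag1 was at 41.7 and 42.1 FPKM in In vitro 1w against 19.5 and 15.2 in In vitro 2w, and Dll4 at 0.472 and 0.556 against 2.67 and 1.93. Leaving out any 1 of the 8 libraries ended both calls, with log2 values of 1.03 to 1.39 for Jag1 and -2.09 to -1.64 for Dll4 and adjusted p of 0.012 to 0.036 and 0.017 to 0.036. Dropping the filter or the variance trend ended both calls too, and a pseudocount of 1 ended that of Dll4 (-1.05). The values for Hey2 (1.17, limma adjusted p 0.047) and Heyl (-0.61, limma adjusted p 0.013) were not called. Of the 15 endothelial markers, 6 were called lower in the same test.

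A further 55 genes of the pathway were looked up by list, of which 47 passed the filter. The lists cover the remaining receptors and ligands, the enzymes that trim and glycosylate the receptors, the proteases that cleave them, trafficking and turnover, the nuclear complex and further targets. Of the 47, limma called 4 higher in vivo and 3 lower at 1 week, where 7.79% and 5.07% of all tested genes were called. At 2 weeks it called 1 higher (Jag2) and 3 lower (Aph1c, Neurl1b and Ccnd1), beside 9.02% and 8.05% of all tested genes. Over time 2 were called higher in vitro, beside 2.76%. In vivo limma called 0 over time, with 13 at an unadjusted p under 0.05, beside 31.7% of all tested genes, and 0 by limma voom. The median log2 difference of the 47 was 0.13 at 1 week and 0.16 at 2 weeks, against -0.0058 and -0.0034 over all tested genes.

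Among the remaining receptors and ligands, 3 of 7 passed the filter, and all 3 were called higher in vivo at 1 week. Dll1 passed the filter only through its in vivo libraries, so its direction is not independent of the filter. Notch4, a receptor mainly of endothelial cells, was at 0.701 and 0.648 FPKM in In vitro 1w, 2.31 and 1.71 in In vitro 2w, 6.46 and 6.96 in In vivo 1w, and 3.65 and 4.03 in In vivo 2w. It was 9.95-fold higher in vivo at 1 week (log2 difference 3.14, SE 0.16, limma adjusted p 1.6e-05), a call kept in each of 20 alternatives. It rose 2.97-fold in vitro over time (log2 difference 1.43, limma adjusted p 0.0018), lost without In vitro 1w replicate 1 (1.48, adjusted p 0.013), In vitro 1w replicate 2 (1.38, adjusted p 0.015) or In vitro 2w replicate 1 (1.22, adjusted p 0.010), with a pseudocount of 1 (0.84) and with only the 4 libraries compared (adjusted p 0.033). The in vivo difference of Notch4 shrank between weeks (-2.22, limma adjusted p 0.0041), a call that ended on leaving out any 1 library other than In vivo 2w replicate 2 (-2.43 to -2.01) and on dropping the filter or the variance trend.

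Dll1, a further Delta-like ligand, rested on 2 and 5 fragments in In vitro 1w and 41 to 51 fragments in the in vivo libraries. It read 0.031 and 0.079 FPKM in In vitro 1w and 0.855 to 1.09 FPKM in vivo, with 0.446 and 0.401 in In vitro 2w. Its log2 difference at 1 week was 2.68 (SE 0.32, limma adjusted p 0.00065, and 0.84 with a pseudocount of 1) and that over time in vitro 1.77 (limma adjusted p 0.0092), the latter lost on leaving out any 1 of the 8 libraries (1.54 to 1.999), with a pseudocount of 1 (0.43), without a filter and with only the 4 libraries compared. Jag2, the other Jagged ligand, was at 0.438 and 0.4999 FPKM in In vitro 1w, 1.24 and 0.760 in In vitro 2w, 1.36 and 1.40 in In vivo 1w, and 2.06 and 2.21 in In vivo 2w. Its differences of 1.38 at 1 week and 1.06 at 2 weeks (limma adjusted p 0.0037 and 0.0095) were lost without any 1 of the 4 libraries of 1 week (1.30 to 1.46), with a pseudocount of 1 (0.70) and without a filter (adjusted p 0.010) and, at 2 weeks, in 15 of 20 alternatives, among them each library left out other than In vitro 2w replicate 1 (0.74 to 1.11). Dll3, Dlk1, Dlk2 and Dner stayed below the filter and were not tested. Of these, Dlk1 read 0.184 to 0.819 FPKM in the in vitro libraries and 0.0160 to 0.0783 in the in vivo libraries. The in vivo values rest on 1 to 5 fragments.

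The lists of receptor maturation, cleavage, and trafficking and turnover each gave 1 called gene at 1 week, among 6, 9 and 11 tested genes. Of all tested genes, 7.79% were called higher and 5.07% lower at that week. Mfng, a Fringe enzyme that adds sugars to Notch receptors and alters which ligands they answer to, was at 0.778 and 1.01 FPKM in In vitro 1w and 3.70 and 2.51 in In vivo 1w (log2 difference 1.67, SE 0.22, limma adjusted p 0.00099), a call of Mfng lost with only the 4 libraries compared (adjusted p 0.012). At 2 weeks it read 1.88 and 1.68 in vitro and 2.03 and 2.14 in vivo. Aph1c, a subunit of γ-secretase, was at 2.995 to 5.31 FPKM in all in vitro libraries and 0.696 to 1.26 in all in vivo libraries. It was 2.91-fold lower in vivo at 1 week (log2 difference -1.46, limma adjusted p 0.0026), a call lost without any 1 of the 4 libraries of that week (-1.61 to -1.31), and 5.50-fold lower at 2 weeks (-2.37, SE 0.23, limma adjusted p 0.00022), kept in each of 20 alternatives. Aph1b and Aph1c are close copies in the mouse, so reads may have been shared between them, and the Aph1c value is uncertain on that account. Neurl1b, an E3 ubiquitin ligase that acts on Notch ligands, was at 1.32 to 2.41 FPKM in vitro and 0.504 to 0.740 in vivo (log2 difference -1.64 at 1 week and -1.17 at 2 weeks, limma adjusted p 0.00058 and 0.0022). With a pseudocount of 1 the Neurl1b differences were -0.998 and -0.61, short of the limit. The Neurl1b call at 2 weeks was lost without In vitro 2w replicate 1 (-1.09) or In vitro 2w replicate 2 (-1.24) and with only the 4 libraries compared (adjusted p 0.023).

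In the nucleus, limma called 0 of the 12 genes of the nuclear complex in each of the 5 comparisons, and limma voom called 1, Spen at 2 weeks. Spen, a corepressor that binds RBPJ and is named here for that call after its values were seen, had a limma log2 difference of 0.98 (adjusted p 0.005). At an unadjusted p under 0.05 there were 7 of them at 1 week and 7 at 2 weeks in vivo against in vitro, 6 over time in vitro, 1 over time in vivo and 1 in the difference between weeks. The shares of all tested genes at that limit were 50.6%, 56.4%, 38.2%, 31.7% and 26.9% in the same order. Rbpj, the DNA-binding partner of the cleaved receptor, was at 8.53 to 10.98 FPKM in all 8 libraries. Its log2 difference in vivo was -0.074 at 1 week (95% interval -0.28 to 0.14) and 0.054 at 2 weeks (95% interval -0.16 to 0.26), so a 2-fold difference of Rbpj lay outside both intervals. Among the other targets, Ccnd1, which encodes cyclin D1 of the cell cycle, was at 25.0 to 31.1 FPKM in vitro and 8.40 to 12.0 in vivo. It was 2.67-fold lower in vivo at 1 week and 2.95-fold lower at 2 weeks (log2 difference -1.41 and -1.55, limma adjusted p 3.8e-05 and 2e-05), calls kept in each of 20 alternatives. Ccnd1 was the only gene that limma called among the 6 further targets that passed the filter, while limma voom also called Gata2 higher at 1 week (1.14, adjusted p 0.005), named here for that call after its values were seen. Gata2 encodes a transcription factor of blood and endothelial cells, and its limma log2 difference was 1.02 (adjusted p 0.012). Hes5 did not pass the filter.

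**Figure D5:**
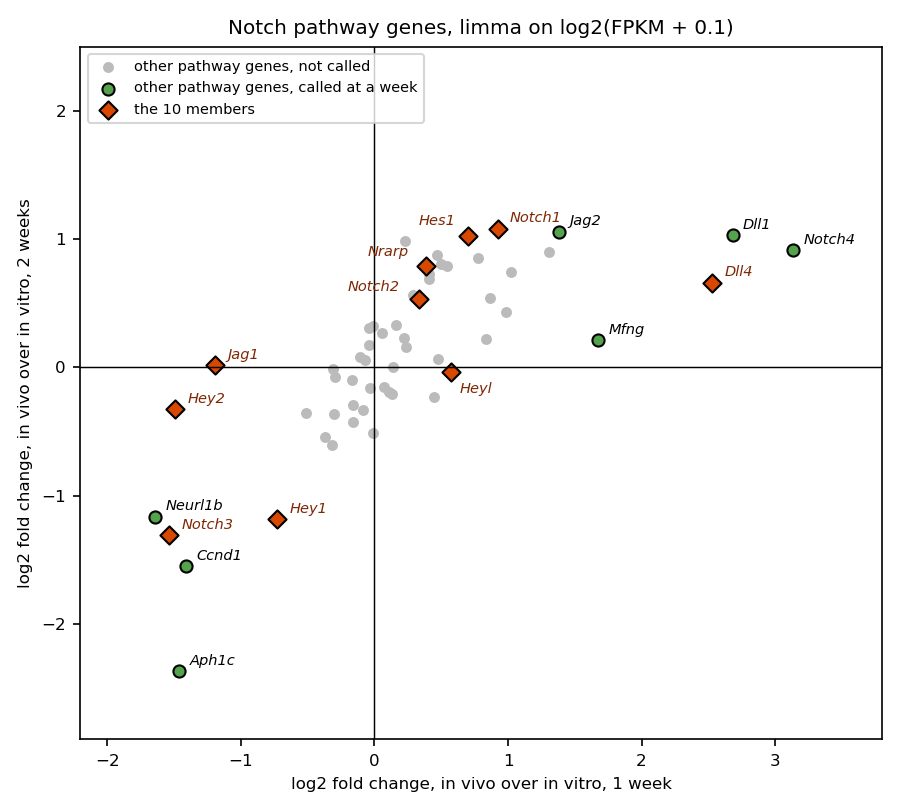
log2 fold change in vivo over in vitro at 1 week (horizontal) against that at 2 weeks (vertical) for the 10 members (diamonds) and 47 further pathway genes (circles, named where called at either week). Notch4 (3.14), Dll1 (2.68) and Dll4 (2.53) lie far to the right at 1 week, and Aph1c (-2.37) lies lowest at 2 weeks.

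Genes with the most similar course over the 8 libraries were looked up for each called member among 13104 tested protein-coding genes, as the smallest root mean square difference of the centred log2 values. For Dll4 the nearest was Dll1 (0.21), followed by Gem (0.23), which encodes a small GTP-binding protein. Dll1 passed the filter only through its in vivo libraries. Its In vitro 1w values of 0.031 and 0.079 FPKM lie below the 0.1 added before taking logs. The ratio of mean FPKM in vivo over in vitro at 1 week was 16.04 for Dll1 and 6.69 for Dll4. The likeness of Dll1 and Dll4 therefore depends in part on the filter and on the added 0.1. For Notch3 they were Mmp12, a macrophage elastase (0.13), and Slf2 (0.17). For Jag1 the nearest were Slit2, a secreted guidance protein (0.10), and Flrt3, a membrane protein that binds FGF receptors (0.13). Notch1 was nearest to Slc8a1, the sodium-calcium exchanger (0.093), and Tlr3, a receptor for double-stranded RNA (0.10). Hes1 was nearest to Zdhhc1 (0.093) and Castor2 (0.098), Hey1 to Dgat1 (0.091) and Ninj1 (0.092), and Hey2 to Slc25a42 (0.15) and Sema3a (0.16). With 4 groups of 2 libraries, such profiles hold few independent points, and they are given as a description.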

How the data were processed

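RNA-seq was made by the study with a SMARTer mRNA kit from sorted eGFP+ cells. Per the labels, CASAVA, HISAT2 2.0.5 and the mm10 genome were used. The tool that counted fragments is not given in the sources used here. The deposited FPKM table has 8 library columns. FPKM steps came out as whole fragments (99.7% to 100% of values within 0.01). The library size behind the FPKM was 1.09 to 1.15 times the fragment total in the in vitro libraries. In the in vivo libraries it was 0.863 to 0.915 times that total, so this scaling goes with the setting. Gene coordinates are those of the table.

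All 8 libraries entered a limma 3.58.1 fit (R 4.3.3) on log2(FPKM + 0.1), with 4 groups of 2, no covariates, a variance trend and Benjamini-Hochberg adjustment over the 15708 genes at 0.5 FPKM in at least 2 libraries. The study tested counts, which are not used here. The numbers of its thresholds (p under 0.01, over 2-fold) were kept, here on the adjusted p. A fold change on this scale understates that of low genes. Ratios of means are of FPKM itself. The fit was run on simulated data as a check of the code. Those data had a fixed setting for the spread between libraries and no scaling that went with the group. They therefore do not show how the fit does on the real libraries. The intervals are 95% intervals of limma. The voom alternative used recovered fragments. Replicates of a group differed by more than sampling noise (chi-square per gene 4.50 to 9.93). Named genes were the 10 members, each listed pathway gene called in at least 1 comparison, Rbpj, and the 2 nearest profiles of each called member. The members and lists were chosen with earlier results of these data known. Upstream sequences are from RefSeq.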

Additional observations from a re-analysis of the deposited data

Results flagged for a closer look

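In 3 Notch genes the in vivo against in vitro difference was not the same at 1 and 2 weeks by the test of that difference (limma, Benjamini-Hochberg adjusted). The log2 difference between weeks was 1.21 for Jag1 (adjusted p 0.0085), -1.87 for Dll4 (adjusted p 0.0084) and -2.22 for Notch4 (adjusted p 0.0041). In each of the 3 genes the in vitro libraries of 1 and 2 weeks did not overlap. For Jag1 and Dll4 the in vivo libraries of the weeks overlapped, and for Notch4 they did not, at 6.46 and 6.96 FPKM in In vivo 1w and 3.65 and 4.03 in In vivo 2w. The calls of Jag1 and Dll4 did not hold on leaving out any 1 of the 8 libraries. That of Notch4 held only without In vivo 2w replicate 2.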

How the results depend on the processing

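The precision is set by 2 libraries a group, and some values also rest on few fragments. Dll1 had 2 to 51 and Nrarp 18 to 59 over the libraries. Dll4 had 28 and 32 in In vitro 1w, and Hey2 had 45 and 51 in In vivo 1w. Of 990 alternative values for the 10 genes, 924 kept direction and side of the threshold, 37 lost a call, 16 gained 1 and 13 changed sign, all of the last in values not called. Notch3 at both weeks, Jag1 and Dll4 at 1 week and Hey1 at 2 weeks kept their calls throughout. The alternatives were not equal challenges. An adjusted p under 0.05 with no fold limit could not end a call. Changing the filter, or in limma leaving out a library outside the compared groups, kept the log2 difference. Such settings could act only through the spread and the adjustment. The cause of the changes below was not tested. The alternatives for the further pathway genes were chosen after seeing the data.

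Without the scaling between libraries the median log2 difference of all genes moved to -0.34 at 1 week and -0.33 at 2 weeks. Members called at 2 weeks then numbered 2 (Notch3 and Hey1), and Notch2 at 1 week read -0.0075, Jag1 at 2 weeks -0.31 and Rbpj at 2 weeks -0.27. Relative to the shift of the median, these 3 values have the sign they had with the scaling. With quantile normalization Hes1 over time in vitro read -0.088. At an adjusted p under 0.05 with no fold limit, all genes called numbered 6605 at 1 week, 7825 at 2 weeks, 3942 over time in vitro, 2476 over time in vivo and 1558 in the difference between weeks, and members 9 at 1 week, 5 over time in vitro, 2 over time in vivo and 4 in the difference. With only the libraries compared, 0 genes were called over time in vitro or in vivo (599 and 342 with all libraries), 0 of the members, while 6003 and 4974 genes had an unadjusted p under 0.05 with all libraries. That setting gives no value for the difference between weeks, which needs all groups.

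The difference between weeks was the least stable. Of all genes, 271 were called, against 72 without a filter, 463 among protein-coding genes, 71 without a variance trend, 473 with limma voom and 27 with the replicate block. Members called were 2, against 1 with a pseudocount of 1 and 0 without a filter, without a variance trend and with the replicate block. The replicate numbers did not pair the libraries (correlations of deviations -0.048 to -0.011 between groups), so the block is given here only. Leaving out 1 library each gave 2 to 190 genes and 0 members there, 223 to 604 genes over time in vitro, 90 to 271 over time in vivo and 2 to 4 members at 2 weeks. Values that changed sign on leaving out 1 library ranged from -0.16 to 0.20 for Jag1 and -0.11 to 0.031 for Heyl at 2 weeks, -0.16 to 0.010 for Rbpj at 1 week and -0.0023 to 0.11 at 2 weeks, -0.80 to 0.57 for Nrarp over time in vitro, -0.037 to 0.22 for Notch2, -0.037 to 0.60 for Nrarp and -0.14 to 0.00069 for Jag1 over time in vivo, and -0.059 to 0.38 for Notch1 and -0.29 to 1.09 for Nrarp in the difference.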
